A study of Mus musculus with 9 samples.

Results

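This report describes accessible chromatin at 10 genes that regulate or answer hypoxia and oxidative stress in mouse brain endothelial cells (ECs), namely Hif1a, Epas1, Vhl, Egln1, Egln3, Nfe2l2, Keap1, Hmox1, Nqo1 and Txnrd1. The members are all peaks whose annotated gene is one of the 10, 339 of 253457 peaks in 9 libraries. Peaks of all libraries that overlapped were merged, which gave 92 member regions of 92495. The libraries came from purified brain EC nuclei by Omni-ATAC-seq, which uses a transposase to tag DNA that nucleosomes leave accessible. Young mice gave 2 WT Cre and 3 EC-K4KO libraries, and old mice gave 2 of each. Per the study's methods, EC-K4KO mice carried floxed Klf4 and an inducible Cre driven by the VE-Cadherin (Cdh5) promoter. WT Cre mice carried the Cre with intact Klf4. The study used male and female mice on the C57BL/6J background, and adult mice of all 4 groups received tamoxifen. The study's methods do not give the sex of the mice behind each library. The labels name the groups CdH5CRE and ECK4KO and give age as young or old without a number. They do not say whether a library came from 1 mouse or from a pool, so p-values measure the spread between libraries, which may be technical in part.

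HIF-1α (Hif1a) and HIF-2α (Epas1) are the oxygen-regulated subunits of the hypoxia-inducible factors, and HIF-2α is abundant in ECs. In normal oxygen the prolyl hydroxylases, among them Egln1 and Egln3, mark both subunits for the von Hippel-Lindau ubiquitin ligase (Vhl), which sends them to the proteasome. NRF2 (Nfe2l2) is held and degraded through KEAP1 (Keap1) until oxidants modify KEAP1, after which NRF2 turns on antioxidant genes such as Hmox1 (heme oxygenase), Nqo1 (a quinone reductase) and Txnrd1 (a thioredoxin reductase).

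Some facts of the whole series bear on every value below. Each library has its own peak list, and the young WT Cre lists were short, at 6157 and 9598 peaks, against 23848 to 27992 in young EC-K4KO, 32555 to 43893 in old WT Cre and 39079 to 45026 in old EC-K4KO. A missing peak in a short list is therefore not the same as closed chromatin. Sequencing depth is unknown, because the values hold peaks and not reads. Library names carry 1 prefix for young and another for old libraries, so age and prefix cannot be told apart. Of 12 endothelial marker genes, 7 to 11 had a promoter peak in each library, and of 6 microglial markers 0 had one in any library. Pericyte and smooth muscle markers were at 0 of 6 in both young groups, at 0 and 1 in old WT Cre and at 1 and 3 in old EC-K4KO. Astrocyte markers were at 0 of 6 in both young groups, at 0 and 1 in old WT Cre and at 1 and 1 in old EC-K4KO. Oligodendrocyte and neuron markers were at 0 of 6 except in 1 young EC-K4KO library each (1 of 6) and in old EC-K4KO replicate 1, with 2 and 1 of 6. The part of these markers in the results was not tested. The Klf4 promoter had a peak in all 9 libraries. The peak lists therefore do not check the deletion.

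Sequences at 4 places are shown because the results turn on them. They are the Hif1a promoter, a Hif1a upstream region and an Epas1 intron 1 region open in all libraries, and an Epas1 upstream region that was in every list but those of young WT Cre. They were read from GRCm38 (mm10), plus strand, with the promoter from the RefSeq promoter table, which matched 8 of the 10 members and had no entry for Epas1. Capitals mark CACCC or its reverse complement GGGTG, the letters of a core bound by KLF factors. Other forms of KLF site were not searched, so a window without capitals lacks only these letters.
Hif1a promoter, chr12:73907617-73907866, intergenic, ending just before the RefSeq start site: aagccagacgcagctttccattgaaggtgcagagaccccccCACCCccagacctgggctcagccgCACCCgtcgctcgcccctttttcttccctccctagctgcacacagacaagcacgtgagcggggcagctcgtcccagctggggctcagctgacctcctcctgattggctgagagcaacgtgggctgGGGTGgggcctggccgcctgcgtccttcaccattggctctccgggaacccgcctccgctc
Hif1a upstream region at 117 kb, chr12:73790769-73790968, intergenic: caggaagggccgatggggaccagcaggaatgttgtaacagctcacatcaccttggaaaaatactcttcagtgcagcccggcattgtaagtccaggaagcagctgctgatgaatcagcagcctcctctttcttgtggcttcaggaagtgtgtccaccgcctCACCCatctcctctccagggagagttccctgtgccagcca
Epas1 intron 1 region, chr17:86769843-86770042, intronic: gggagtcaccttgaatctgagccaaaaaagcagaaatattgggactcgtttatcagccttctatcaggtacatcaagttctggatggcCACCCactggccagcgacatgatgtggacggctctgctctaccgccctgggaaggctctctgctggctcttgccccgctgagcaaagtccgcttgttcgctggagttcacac
Epas1 upstream region at 21.6 kb, chr17:86732151-86732350, intergenic: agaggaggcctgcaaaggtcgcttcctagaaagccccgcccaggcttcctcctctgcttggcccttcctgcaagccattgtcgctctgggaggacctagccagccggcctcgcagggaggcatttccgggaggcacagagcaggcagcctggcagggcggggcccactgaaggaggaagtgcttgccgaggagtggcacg

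The Hif1a promoter held CACCC at 3 sites and the other regions at 1, 1 and 0 sites, counting both strands and joining overlaps. The HIF core, ACGTG or GCGTG, was at 2 sites of the Hif1a promoter and at 0 sites of the other 3 windows. The core of the antioxidant response element that NRF2 binds, TGACNNNGC or TGAGNNNGC, was in none of the 4. Among all 32544 RefSeq promoters, 52.1% held CACCC in the 250 bases upstream, 38.8% the HIF core and 23.2% the antioxidant core. Among 4390 regions over 1000 bp from a transcription start site (TSS) with a peak in 7 or more libraries, 47.1%, 32.3% and 21.1% held them in a central window of 200 bp. Of the 8 member regions of that kind, 5 held CACCC, 1 the HIF core and 2 the antioxidant core. A match of letters is not a bound site.

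The first question was which members had a start site peak in each group. All 10 had a peak within 1000 bp of the TSS in each of the 4 old libraries. In young EC-K4KO 9, 8 and 9 members did, and in young WT Cre 5 and 5 did. Of the 20035 genes with a peak at any distance in the series, 5354 and 7721 had such a peak in young WT Cre. In young EC-K4KO 13508 to 14243 did, and in the old libraries 14887 to 16421. Genes with a peak at any distance thus rose in number as well. The share of all genes with a peak within 1000 bp was not counted for each library. Only 3 of the 10, Hif1a, Epas1 and Nfe2l2, had a peak within 1000 bp in all 9 libraries, as did 3265 of the 20035 genes. Vhl and Keap1 lacked it in young WT Cre replicate 1, Hmox1 and Txnrd1 in young WT Cre replicate 2, and Egln1, Egln3 and Nqo1 in both. Nqo1 also lacked it in young EC-K4KO replicates 1 and 2, and Egln3 in young EC-K4KO replicates 2 and 3. Where peaks missing from both young WT Cre libraries did occur, those of Nqo1 and Egln3 ranked no better than 13342 and 15880, beyond the end of the young WT Cre lists, while that of Egln1 ranked as high as 4658. The annotation class promoter-TSS, which is set by the centre of the peak, gave a narrower picture. Vhl and Keap1 (exon 1) and Nfe2l2 (intron 1) never received it, since their peaks were centred 151, 297 and 383 bp downstream of the TSS.

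**Figure D1:**
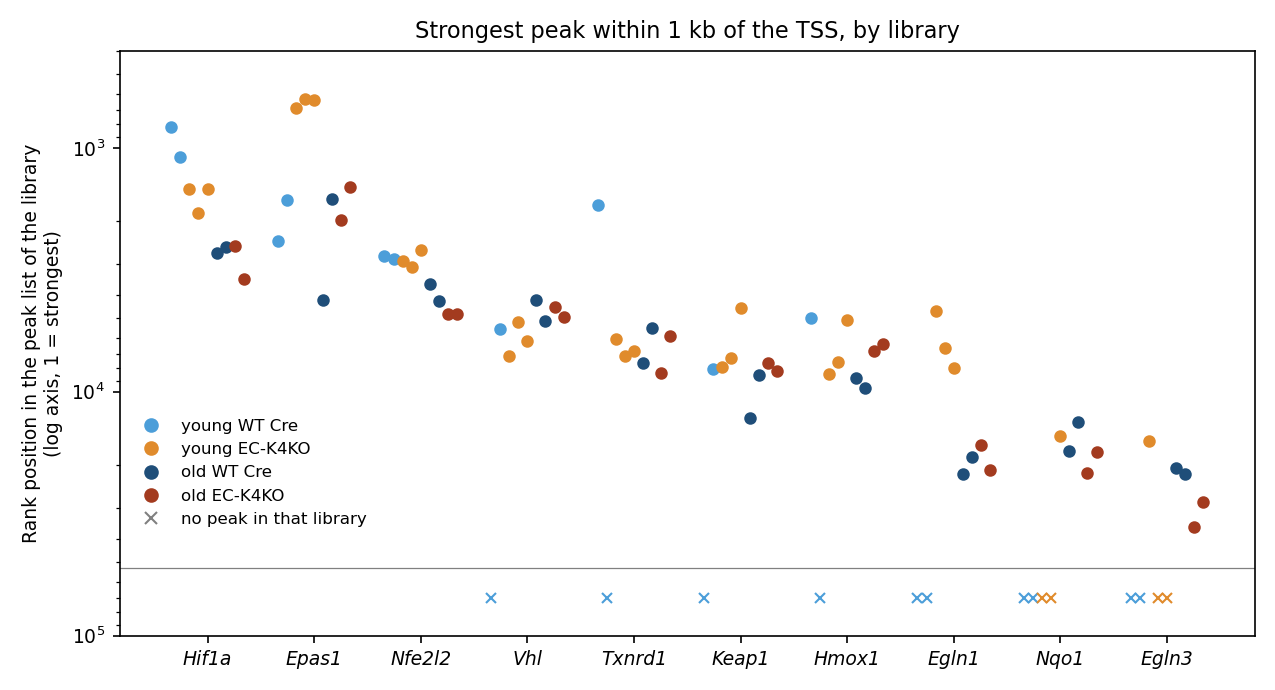
Rank position, on a log axis with 1 as the strongest peak, of each member's strongest peak within 1 kb of its TSS in the 9 libraries, coloured by group, with crosses where a library had no such peak. Hif1a, Epas1 and Nfe2l2 have no cross, and the crosses fall in young libraries, most of them in young WT Cre.

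The start site peaks of the HIF subunits were within the first 13.4% of each list, except that of Epas1 in young WT Cre, at 39.1% and 17.1%. The Hif1a promoter peak (chr12:73907069-73908581 over all libraries) stood at rank position 825 and 1088 in young WT Cre, 1482, 1843 and 1478 in young EC-K4KO, 2690 and 2543 in old WT Cre, and 2535 and 3464 in old EC-K4KO. Its rank position was further down in each old library than in each young one, in lists of unequal length. The share of all genes that separate in this way was not counted. As a percentage of list length the Hif1a promoter peak was at 13.4 and 11.3 in young WT Cre and at 5.28 to 8.86 in the other libraries. To compare libraries with lists of unequal length, rank among the 2279 genes with a promoter-TSS peak in all 9 libraries was turned into a normal score, in SD units across genes. On that scale the Hif1a promoter was lower in old than in young by 0.71, with a fitted difference of -0.71 (SE 0.148, adjusted p = 0.00972, limma), and 10.7% of the genes were called lower with age and 8.42% higher. The call was lost without old EC-K4KO replicate 2 (-0.63, adjusted p = 0.0722) and with an exact permutation test for each gene (exact p = 0.0167, its smallest value, adjusted p = 0.107). The genotype difference of Hif1a was -0.29 (SE 0.148, adjusted p = 0.44). Of all genes 0.0878% were called higher in EC-K4KO and 0.0439% lower.

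The Epas1 promoter (chr17:86753147-86754145) had its best rank positions in young EC-K4KO. Its rank positions were 689, 629 and 635 there, 2409 and 1644 in young WT Cre, 4201 and 1621 in old WT Cre, and 1972 and 1450 in old EC-K4KO. The 3 young EC-K4KO libraries were ahead of the other 6 without overlap. The share of all genes that separate in this way was not counted. The genotype difference over both ages was 0.67 on the normal score scale (SE 0.2, adjusted p = 0.204, limma) and the age difference was -0.49 (SE 0.2, adjusted p = 0.107), and neither passed the threshold. The age value depended on the old WT Cre libraries and was -0.26 without replicate 1 (adjusted p = 0.363) and -0.71 without replicate 2 (adjusted p = 0.0376). The interaction of genotype and age was -0.46 (SE 0.399, adjusted p = 0.769), and leaving out 1 library took it from -0.91 without old WT Cre replicate 1 to -0.01 without old WT Cre replicate 2. Over all genes the interaction was called for 0 of 2279 genes by limma, with 220 at an unadjusted p under 0.05.

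The Nfe2l2 start site peak (chr2:75703412-75705106) was steady in young mice, at rank positions 2765 and 2853 in WT Cre and 2911, 3076 and 2636 in EC-K4KO, and stood lower in old mice, at 3606 and 4233 in WT Cre and 4782 and 4813 in EC-K4KO. Rank positions of old and young libraries did not overlap, and the share of all regions that separate in this way was not counted. As it has no promoter-TSS class, it was compared among the 4872 merged regions with a peak in all 9 libraries, a fit added after seeing the data. The age difference was -0.38 (SE 0.143, adjusted p = 0.0835) and did not pass the threshold. In that limma fit 11.1% of the regions were called lower with age and 9.77% higher. Among the lower ones were the Hif1a promoter (-0.67, SE 0.15, adjusted p = 0.0131) and an Epas1 intron 2 region 48.1 kb downstream of the TSS (-0.80, SE 0.23, adjusted p = 0.0331). The -log10 p behind the rank is an average over the peak, so strength and width are not independent measures. That Epas1 region was also wider with age, by 1.32 on the log2 scale. The part of width in its lower strength was not tested. The Hif1a call was lost without old WT Cre replicate 1 or old EC-K4KO replicate 2, and the Epas1 call without young EC-K4KO replicate 2, old WT Cre replicate 2 or either old EC-K4KO library, with adjusted p between 0.0542 and 0.13 in those fits. By genotype 0 of the 6 shared member regions were called, where 0.267% of all regions were called higher and 0.472% lower.

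Start sites of the hydroxylases, Vhl, Keap1 and the NRF2 targets were missing from 1 or both young WT Cre libraries and were compared in a fit of the other 7 libraries, also added after seeing the data, over 11594 regions with a peak in each of the 7. The Egln1 promoter (chr8:124949246-124949849) had the clearest difference. It stood at rank position 4658, 6616 and 7998 in young EC-K4KO, 21778 and 18524 in old WT Cre, and 16588 and 20877 in old EC-K4KO. On the normal score scale, with the same regions ranked in each library, old minus young EC-K4KO was -1.57 (SE 0.234, adjusted p = 0.0157). In this contrast 4.68% of the regions were called lower and 3.93% higher. With 1 old EC-K4KO library left, the difference was -1.78 without replicate 1 and -1.35 without replicate 2 (adjusted p = 0.153 and 0.217, the remaining library being assumed to vary like the others). A second Egln1 peak, 4.11 kb upstream of the TSS, went the other way in rank position, with 10886 and 15989 in young EC-K4KO replicates 2 and 3 and no peak in replicate 1, against 4697 and 7017 in old WT Cre and 7313 and 7543 in old EC-K4KO. It was in too few libraries to be fitted.

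Start site peaks of Vhl, Keap1, Hmox1 and Txnrd1 did not differ past the threshold between old and young EC-K4KO. Vhl lay at rank position 4216 to 7116 over its 8 libraries, Hmox1 at 4992 to 9664, Keap1 at 4543 to 12794 and Txnrd1 at 1708 to 8382. Differences on the normal score scale were 0.33 for Vhl (SE 0.18), 0.15 for Hmox1 (SE 0.225), -0.17 for Keap1 (SE 0.255) and -0.02 for Txnrd1 (SE 0.193), with adjusted p from 0.268 to 0.954. Between old EC-K4KO and old WT Cre, 0 of the 16 member regions in this fit and 0 of all 11594 regions passed (limma), while 678 regions had an unadjusted p under 0.05. The members at an unadjusted p under 0.05 were 2 intronic regions, 151 kb upstream of Epas1 in Prkce (-1.01, SE 0.26, adjusted p = 0.715) and 138 kb upstream of Hif1a in Prkch (-0.94, SE 0.277, adjusted p = 0.725). Nqo1 (5 libraries) and Egln3 (5 libraries) could not be fitted at their start sites. The Nqo1 peak stood at rank position 13342 to 21464 and that of Egln3 at 15880 to 35708.

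Most member peaks were not at start sites. Of the 339, 153 were intronic, 111 intergenic, 46 promoter-TSS, 28 exonic and 1 at a transcript end. Epas1 alone had 153 (45.1%), Hif1a 48, Egln3 32, Hmox1 28 and Nfe2l2 26, and the other genes had 7 to 17. Of the 92 merged regions, 10 lay within 1000 bp of the TSS (1 for each gene), 23 further away inside the member gene, 26 inside another gene and 33 between genes. The assignment is by nearest TSS. Epas1 had 12 regions in its neighbour Prkce, Hif1a 2 in Prkch and Egln3 9 in Npas3, and whether they act on the member is not known. Regions in 1 library only made up 31.5% of the member regions and 57.3% of all regions.

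Distal peaks, meaning all outside the promoter-TSS class, were more numerous in old than in young libraries at the smallest possible exact p for 4 of the 10 genes, which did not pass after adjustment. Epas1 had 2 and 2 in young WT Cre, 9, 10 and 17 in young EC-K4KO, 26 and 20 in old WT Cre, and 30 and 28 in old EC-K4KO. The groups did not overlap, and the share of all genes whose groups separate in this way was not counted. Old libraries had 19 more than young ones within genotype and EC-K4KO libraries 8 more than WT Cre within age, each with the smallest exact p of a two-sided stratified permutation test over 60 arrangements (exact p = 0.0167, adjusted p = 0.105 for age and 0.614 for genotype over 17612 genes). Hif1a had 1 and 1, then 2, 4 and 3, then 5 and 6, and 9 and 8 in the same order of groups, a difference of 5 with age (exact p = 0.0167, adjusted p = 0.105). The age difference was 4.33 for Egln3 and 3 for Nfe2l2 at the same exact p. With peaks over 1000 bp from the TSS in place of the class, a setting added after seeing the data, that of Egln3 was 3.75 (exact p = 0.0333) and the other 3 genes stayed at the smallest p. Without either young WT Cre library Egln3 and Nfe2l2 were no longer at the smallest p the test allowed, and Epas1 by genotype was not without either young WT Cre or either old EC-K4KO library. In the main test 15.8% of all genes reached the smallest exact p with more peaks for age and 2.15% for genotype. For genotype Epas1 was the only one of the 10. With a -log10 q of at least 2, Epas1 by genotype was not at it (8.17, exact p = 0.0333) and Hmox1 by age was (2.83, exact p = 0.0167). Without any library outside young WT Cre, Hif1a by genotype was at the smallest p left to the test, which was then larger. The adjusted p did not pass 0.05 for any gene.

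These counts moved with list length. Per 10000 peaks of the library, Epas1 had 3.25 and 2.08 distal peaks in young WT Cre, 3.77, 3.95 and 6.07 in young EC-K4KO, 5.92 and 6.14 in old WT Cre, and 6.66 and 7.16 in old EC-K4KO. The age difference was then 2.84 and the genotype difference 1.41 (exact p = 0.0333 for both), so neither was at the smallest value, and the other 3 genes had exact p from 0.117 to 0.883. Among the 6157 strongest peaks of each library, the length of the shortest list, Epas1 differed by 0.167 with age and by -0.167 with genotype. Within each list Epas1 was still among the genes with most peaks. It ranked 42 of 5354 and 134 of 7721 genes in young WT Cre, 23, 33 and 5 in young EC-K4KO, 6 and 7 in old WT Cre, and 6 and 4 in old EC-K4KO.

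**Figure D2:**
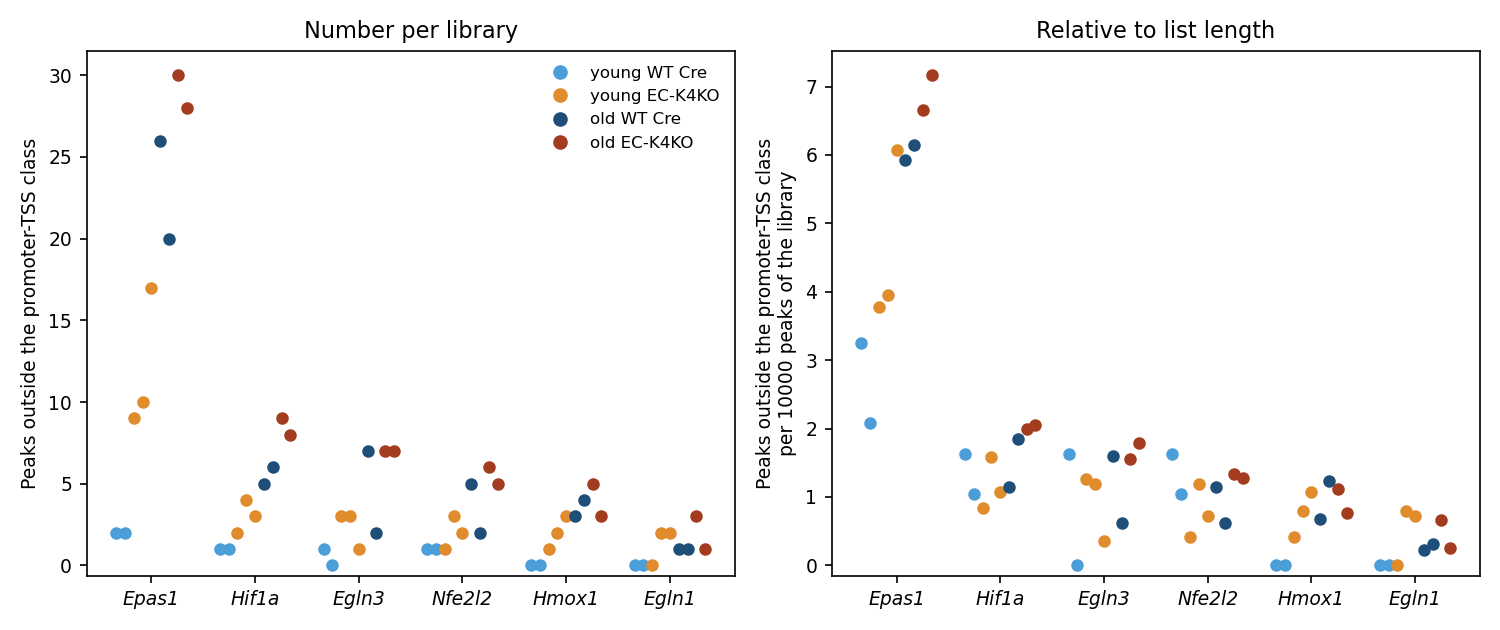
Peaks outside the promoter-TSS class for 6 members in the 9 libraries, as numbers on the left and per 10000 peaks of the library on the right, 1 point for each library coloured by group. Epas1 runs from 2 in young WT Cre to 30 in old EC-K4KO on the left and from 2.08 to 7.16 on the right.

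The growing set of Epas1 peaks had a fixed core. The promoter and the intron regions 16.1 kb and 48.1 kb downstream were in all 9 libraries and were the only Epas1 peaks of young WT Cre. Another 4 regions, 21.6, 43.5 and 151 kb upstream and 22.8 kb downstream, were in all 7 other libraries. The intron 1 region at 16.1 kb (chr17:86769579-86770299), whose sequence is given above, stayed at rank position 1645 to 3349 in all 9. On the normal score scale it differed by 0.23 with genotype (SE 0.155, adjusted p = 0.518, limma) and by -0.13 with age (SE 0.155, adjusted p = 0.561).

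The region 21.6 kb upstream of Epas1 (chr17:86731957-86732498), also shown above, was the strongest of those absent from young WT Cre. It stood at rank position 6372, 5775 and 5919 in young EC-K4KO, 2667 and 2624 in old WT Cre, and 3868 and 2489 in old EC-K4KO. Every old library had it further ahead than young EC-K4KO did. The share of all regions that separate in this way was not counted. Against young EC-K4KO the Epas1 upstream region was higher in old EC-K4KO by 0.65 (SE 0.168, adjusted p = 0.0483, limma). Leaving out any of the 7 libraries ended the call, with values from 0.48 to 0.83 and adjusted p from 0.0675 to 0.376, and so did the fit with the replicate number as a block (0.66, adjusted p = 0.0784). In the 7 libraries its fold over local background was 3.74 to 10.6. The list of young WT Cre replicate 1 ended at 6157 peaks, near the rank position of this region in young EC-K4KO, and that of replicate 2 went on to 9598.

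**Figure D3:**
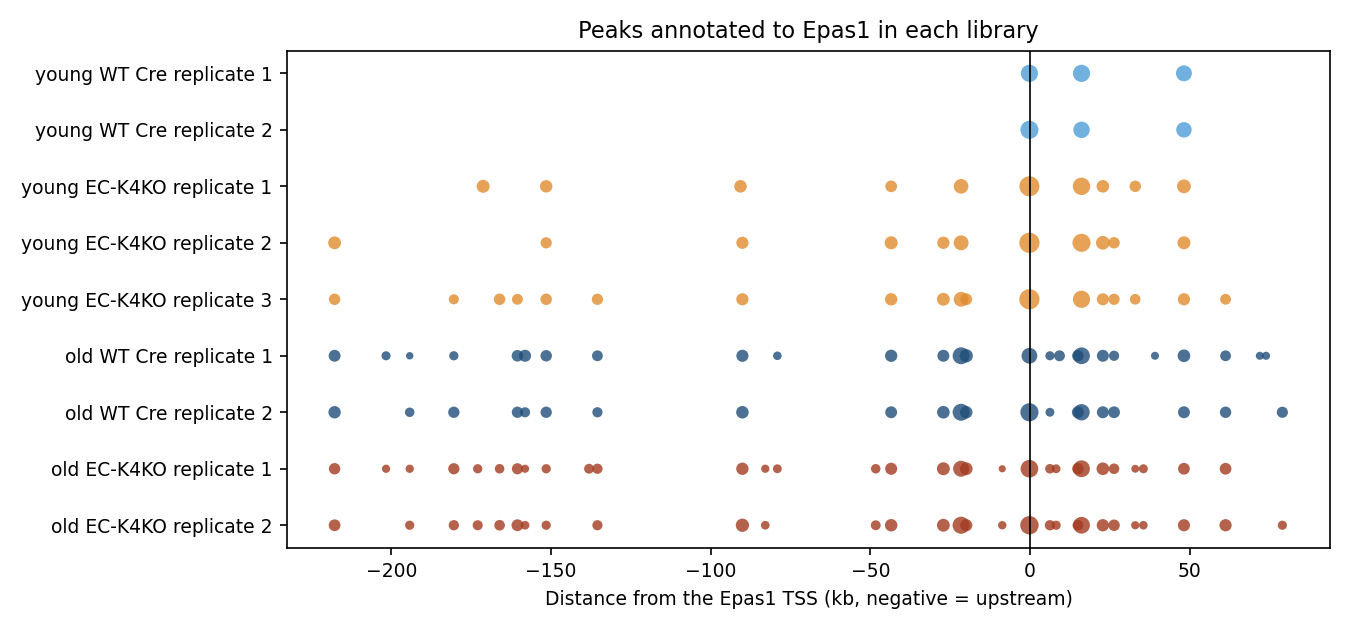
Each point is a peak region annotated to Epas1, by distance from the TSS in kb (x axis) in each library (rows), with a larger point for a better rank position. Young WT Cre libraries show 3 regions each, at the TSS and 16.1 and 48.1 kb downstream, and the other libraries add regions on both sides.

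Presence of whole regions gave the same account. Of the 63 member regions with a peak in at least 2 libraries, 53 were absent from both young WT Cre libraries (84.1%, against 77.3% of all 39508 regions in at least 2 libraries). A region was taken as gained when at least 2 libraries of a group had it and young WT Cre had none. Young EC-K4KO gained 16 of the 63 (25.4%), against 23.9% of those 39508 regions. Old WT Cre gained 28 (44.4%), against 40.8%. Old EC-K4KO gained 48 (76.2%), against 62.2%, and 13 of the 63 (20.6%) were in both old EC-K4KO libraries and in no other, against 8.98%. Without young EC-K4KO replicate 2 or 3, when both libraries left had to have the region, the young EC-K4KO count was 7 or 6. The share of all regions was then 10.7% or 10.5%. No member region was lost in any group by the same rule. Lost regions among all 39508 numbered 4 for old EC-K4KO, 1 for old WT Cre and 1 for young EC-K4KO, so the absence of losses does not set the members apart. Among the 6157 strongest peaks of each library each group gained 1 of 11 member regions and lost 1, and 8.89% to 10.6% of all regions were gained. Lost regions among all 7933 then numbered 524 for old EC-K4KO, 433 for old WT Cre and 177 for young EC-K4KO. Of the 53 regions, 4 ever ranked within 6157.

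Peak width was the other measure. Over all genes promoter peaks were wider in EC-K4KO than in WT Cre, averaged over both ages. The median was 0.34 on the log2 width scale. Averaged over both genotypes they were wider in old than in young libraries, with a median of 0.43. The interaction median was -0.48, so the genotype difference was smaller in old than in young libraries. Of the 2279 genes, 35.5% were called wider with genotype, 65.3% with age, and 10.4% had a called negative interaction. The Hif1a promoter peak was 778 and 1085 bp wide in young WT Cre, 1205, 1396 and 1433 bp in young EC-K4KO, 948 and 1107 bp in old WT Cre, and 1469 and 1503 bp in old EC-K4KO. All 5 EC-K4KO libraries were wider than all 4 WT Cre libraries, and the share of all genes that separate in this way was not counted. The genotype difference was 0.54 on the log2 width scale (SE 0.122, adjusted p = 0.0185, limma), and the age difference was 0.15 (SE 0.122, adjusted p = 0.274). The latter depended on the young WT Cre libraries and was 0.03 without replicate 1 (adjusted p = 0.77) and 0.27 without replicate 2 (adjusted p = 0.0386). With width taken relative to the library's median, the genotype difference was 0.18 (adjusted p = 0.288) and the age difference -0.28 (adjusted p = 0.0758). The genotype call was also lost without old WT Cre replicate 1 or either old EC-K4KO library, with adjusted p from 0.065 to 0.071, and with the exact permutation test for each gene (adjusted p = 0.0625). Epas1 promoter width was nearly fixed, at 799 and 800 bp in young WT Cre and 880 to 980 bp in the other 7 libraries. Its differences were 0.12 with genotype and 0.15 with age (adjusted p = 0.156 and 0.0915), and both were negative relative to the library median, at -0.24 and -0.29. With width in bp the age difference was 88.7 bp and passed (adjusted p = 0.0398).

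Among the 6 regions in all libraries, distal ones varied in width by more. The Epas1 intron 2 region at 48.1 kb was 898 and 485 bp wide in young WT Cre, 1009, 2512 and 2774 bp in young EC-K4KO and 2735 to 2849 bp in the 4 old libraries. It was wider with age by 1.32 on the log2 scale (SE 0.332, adjusted p = 0.0138), where 66.1% of the 4872 regions were called wider. The Hif1a region at 117 kb was 221 and 223 bp in young WT Cre, 470, 704 and 626 bp in young EC-K4KO, 662 and 609 bp in old WT Cre, and 690 and 704 bp in old EC-K4KO. Averaged over both ages its width rose by 0.77 with genotype (SE 0.127, adjusted p = 0.00952), where 30.3% of the regions were called. Averaged over both genotypes it rose by 0.88 with age (SE 0.127, adjusted p = 0.00299). Its interaction was -1.28 (SE 0.254, adjusted p = 0.0309), and 8.52% of the regions had a called negative interaction. Both averages rest on the narrow young WT Cre peaks, since the other libraries were all at 470 to 704 bp. Relative to the median width of the library none of these calls of either region passed, with adjusted p from 0.0664 to 0.258. The rank position of the Hif1a region moved little, from 2619 to 4438.

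**Figure D4:**
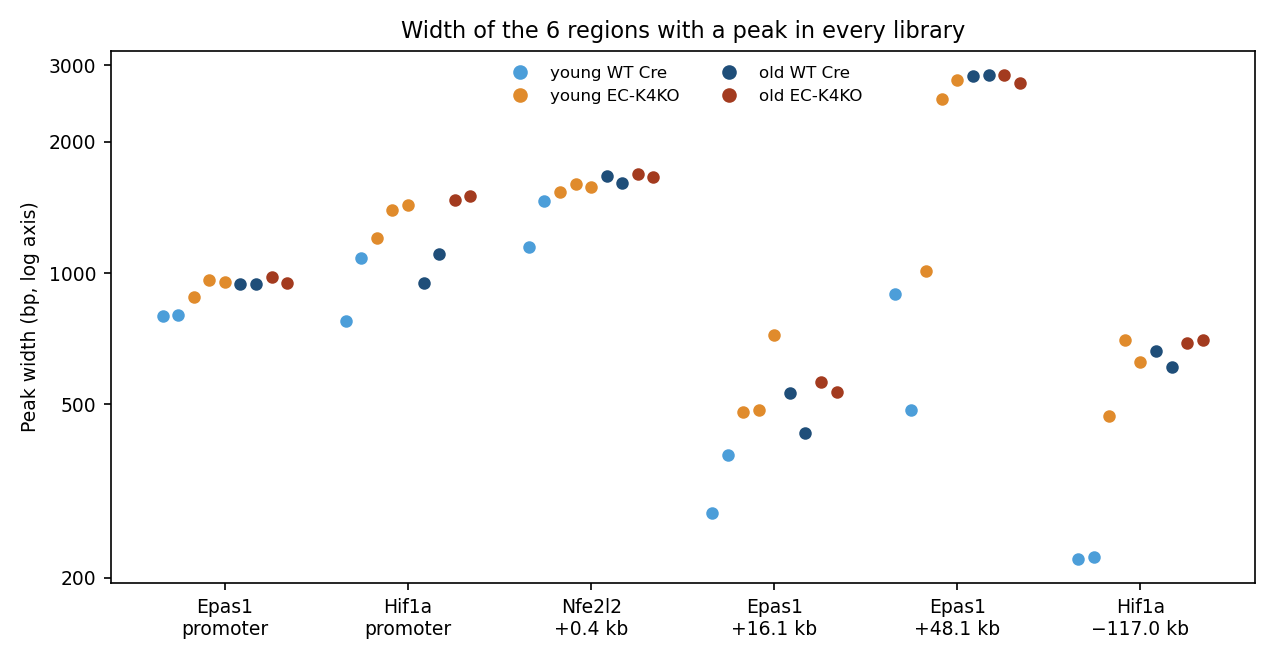
Peak width in bp, on a log axis, of the 6 member regions with a peak in every library, 1 point for each library coloured by group. The 2 young WT Cre points are the lowest of the Hif1a region at 117 kb, at 221 and 223 bp, and the 5 EC-K4KO points lie above the 4 WT Cre points at the Hif1a promoter.

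Other genes of these pathways were taken from a list of 22 on the HIF side and 22 on the NRF2 side, of which 40 had a promoter-TSS peak in at least 1 library. On the HIF side 15 and 15 had such a peak in young WT Cre, 16 to 20 in young EC-K4KO, 18 to 21 in old WT Cre and 19 to 20 in old EC-K4KO. On the NRF2 side the numbers were 9 to 13, 12 to 13, 14 and 14, and 13 to 14. The share of all genes with such a peak is not given here. With every list cut to the length of the shortest, the HIF numbers were 15 and 15, 12 to 16, 12 to 14 and 12 to 13. The NRF2 numbers were then 9 to 11, 9 to 11, 9 and 9, and 8 to 9. The rise from young WT Cre to the old groups was thus absent at equal list length. With promoter-TSS peaks in all 9 libraries, 10 HIF genes and 4 NRF2 genes could be tested. For strength, 0 of the 14 were called with genotype, against 3 of all 2279 genes, and 1 with age, where 10.7% of all genes were called lower and 8.42% higher. It was Maff, a small MAF protein that pairs with NRF2, which was lower in old libraries (-0.87, SE 0.199, adjusted p = 0.0145, limma). The median age difference was 0.09 for the 10 HIF genes and 0.04 for the 4 NRF2 genes, against 0.03 over all genes. For width, 4 of the 14 were called wider with genotype and 9 with age, shares close to the 35.5% and 65.3% of all genes. The 4 were Bnip3 (0.66, adjusted p = 0.00769), a mitophagy receptor, Srxn1 (0.92, adjusted p = 0.00826), which repairs oxidised peroxiredoxins, Eloc, listed as Tceb1 (0.41, adjusted p = 0.0178), a partner of Vhl, and Ddit4 (0.36, adjusted p = 0.0186), an inhibitor of mTOR signalling.

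Strength was also compared for the strongest peak within 1000 bp of the TSS, which let 25 of the 44 be tested, 14 HIF and 11 NRF2 genes. With age, 3 were called lower and 0 higher, where 325 of 3265 genes were called lower and 255 higher. They were Slc2a1 (-0.81, SE 0.166, adjusted p = 0.00987), the glucose transporter of the blood-brain barrier, Maff (-0.83, SE 0.199, adjusted p = 0.018) and Sqstm1 (-0.52, SE 0.161, adjusted p = 0.0458), which binds KEAP1. Slc2a1 had the promoter-TSS class in 2 libraries and a peak within 1000 bp in all 9.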

How the data were processed

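Omni-ATAC-seq peak lists of 9 libraries were analysed. Per the study's methods and the labels, the authors aligned trimmed reads to mm10 (GRCm38) using Bowtie2, filtered out duplicates and low mapping quality, and ran MACS2 in broad mode on each library. The annotation, with gene, class and distance to the TSS, is in the form HOMER writes. In the deposited lists the score equals -log10 q times 10. The deposited fold is a ratio of signal to local background in the same library. The authors' -log10 values of p and q, as deposited, are averages over a peak. The lists end at a -log10 q of 1.0.

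Peaks were ranked within each list by -log10 p. Regions were formed by merging peaks of any library with an overlap of 1 bp or more. Promoter strength was the normal score of the rank of a gene's strongest promoter-TSS peak among genes with one in all 9 libraries, and width was log2 of its width in bp. Genotype within age, age within genotype and their interaction were fitted with limma 3.58.1 in R 4.3.3, with Benjamini-Hochberg adjustment over all genes or regions and a threshold of 0.05. Distal peaks per gene were compared with a two-sided exact stratified permutation test, smallest p 0.0167. Alternatives covered peak selection (-log10 q of at least 2, the 6157 strongest peaks of every library, peaks within 1000 bp), scale, replicate block and each library left out. Scripts used Python 3.11.15 and were tested on simulated data. Members, gene lists and tests were chosen with earlier results of these data known. Named genes were the members, the regions in all 9 or 7 libraries or gained against young WT Cre, and called genes of the pathway lists, and the other pathway genes and regions named were chosen after their values were seen. Read counts were not used here, so the authors' read-based test was not rerun, and peak number limits precision.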

Additional observations from a re-analysis of the deposited data

Results flagged for a closer look

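The width of the Hif1a region 117 kb upstream differed between ages in its genotype difference. The genotype difference was smaller in old than in young libraries by an interaction of -1.28 on the log2 width scale (SE 0.254, adjusted p = 0.0309, limma over 4872 regions). Young WT Cre peaks were 221 and 223 bp wide against 470 to 704 bp in young EC-K4KO, while old WT Cre peaks were 609 and 662 bp against 690 and 704 bp in old EC-K4KO. The call was lost in each fit that left out a library other than young WT Cre replicate 2 or young EC-K4KO replicate 1 (adjusted p from 0.0537 to 0.138), with the replicate block (-1.24, adjusted p = 0.103) and with width relative to the library median (-0.71, adjusted p = 0.258). The young WT Cre lists were also the shortest, and the part of list length in this difference was not tested.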

How the results depend on the processing

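Counts of calls depended strongly on the setting. Called promoter strengths by genotype numbered 3, and were 0 with peaks within 1000 bp of the TSS, with log2 rank position, with ranks by fold, with the exact permutation test and with the replicate block, 1 at a -log10 q of at least 2 and 5 with genes in 2 libraries of every group. By age they numbered 435, and were 672 ranked by fold and 0 with the exact permutation test. Widths called by genotype numbered 810, and were 5 relative to the library median and 0 with the exact permutation test. By age they numbered 1489, and were 149 and 0. By interaction they numbered 238, and were 66 in bp and 13 relative to the median. In the fit of 7 libraries, 999 regions were called between old and young EC-K4KO, and 1838 with log2 rank position. With the 6157 strongest peaks of each library, genes with more distal peaks at the smallest exact p went from 378 to 5 by genotype and from 2785 to 78 by age, while those with fewer went from 0 to 11 and from 3 to 34. Per 10000 peaks 305 had more and 90 fewer by genotype, and 1179 more and 258 fewer by age. That setting left 1 gained member region in each group. It turned the difference of Epas1 distal peaks by genotype to -0.167 and of Egln3 by age to -0.25.

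Leaving out 1 library gave 0 to 91 called strengths by genotype, 130 to 761 by age and 0 to 23 by interaction. Called widths ranged from 133 to 1421, from 749 to 1887 and from 7 to 875 in the same order. The fit of 7 libraries gave 0 to 1345 calls between old and young EC-K4KO and 0 to 0 between old genotypes. Genes with more distal peaks at the smallest exact p ranged from 411 to 1132 by genotype and from 2844 to 4198 by age. Gained member regions ranged from 6 to 18 in young EC-K4KO, from 28 to 34 in old WT Cre and from 48 to 51 in old EC-K4KO. For gained regions, a group left with 1 library needed the region in that library, and young EC-K4KO left with 2 needed it in both. Young WT Cre left with 1 library had to lack it there. The part of these changed rules in the shifts, and any other cause, was not tested.

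Deviations of same-numbered replicates correlated weakly (from -0.03 to 0.11), most of them positively. In a group of 2 libraries the deviations mirror each other, so these values cannot decide whether the numbers pair the libraries. With the replicate block, called widths fell to 365 by genotype, 1349 by age and 26 by interaction, called strengths to 0, 332 and 0, and calls between old and young EC-K4KO to 518. No blocked fit was made of the distal peak counts, which come from a permutation test.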

Other observations

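The class given to a peak set which pathway genes could be followed. The genes named here were chosen after their values were seen. Of the 44 pathway genes, 14 had a promoter-TSS peak in all 9 libraries and 25 had a peak within 1000 bp of the TSS in all 9. Gpx1, a glutathione peroxidase, had no promoter-TSS peak in any library but a peak within 1000 bp in all 9, with a best rank position of 629. Sqstm1 had the class in 1 library and a peak within 1000 bp in 9, and Bach1, a repressor of NRF2 targets, in 2 and 8. Fth1 and Gpx4 were in the opposite position, with the class in 6 and 9 libraries and no peak within 1000 bp by the annotated distance. P4ha1, a collagen prolyl hydroxylase induced by HIF, ranked as high as 168 but had the class in 6 of 9 libraries.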
